A study of Mus musculus with 6 samples.

Results

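The genes described here are 10 components of myostatin, bone morphogenetic protein (BMP) and activin signalling: the ligand genes Mstn, Gdf11, Inhba, Bmp4 and Gdf5, the receptor genes Acvr2a, Acvr2b and Bmpr1a, and the secreted antagonist genes Fst and Grem1. They were chosen by name, and all 10 were found among the 25308 genes with a count in any library, where a transcript paired with no gene counts as its own gene. The libraries came from C2C12 cells, an established mouse myoblast line, so every group is the same line and the labels name no deletion or transgene. Myoblasts were collected near confluence, and myotubes and reserve cells (the mononucleated cells that stay unfused) came from the same kind of culture after 7 days in low serum medium, where mild trypsin separated them. That time is from the series' design text, and the study's culture methods give a shorter one. Each state had 2 libraries that the submitters call biological replicates, and 9 of the 10 genes passed the filter on low counts. Mstn did not. Cell culture cannot stand for muscle fibres that have nerve and blood supply, and in bulk RNA a lower level in a mixed population cannot be told apart from fewer cells that make the RNA.

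Ligands of this family are made as precursors, cut to an active dimer and released outside the cell. A dimer gathers type II receptors such as Acvr2a, Acvr2b and Bmpr2 with type I receptors. Myostatin, Gdf11 and activins then act mainly through Smad2 and Smad3, and BMPs and Gdf5 mainly through Smad1, Smad5 and Smad9. Follistatin, the product of Fst, binds activins and myostatin, while gremlin 1, the product of Grem1, binds BMPs such as Bmp4. In skeletal muscle, myostatin is known as a brake on growth, follistatin as its antagonist, and BMP signalling as a signal that holds back differentiation of myoblasts and maintains muscle mass in grown fibres.

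Of the 10 genes, 8 had an upstream window in the RefSeq promoter table for GRCm38.p6, the assembly that mm10 names; Gdf5 and Fst were not in it. The windows of Bmp4, Inhba and Grem1 are printed because these genes were at least 2-fold higher in reserve cells than in either other state, and that of Mstn because its RNA was almost absent. Each holds the 250 bases before the start, 5′ to 3′ on the gene's strand, with matches to the E-box letters CANNTG and to TATAAA in capitals.
Mstn, chr1:53061390-53061639, plus strand: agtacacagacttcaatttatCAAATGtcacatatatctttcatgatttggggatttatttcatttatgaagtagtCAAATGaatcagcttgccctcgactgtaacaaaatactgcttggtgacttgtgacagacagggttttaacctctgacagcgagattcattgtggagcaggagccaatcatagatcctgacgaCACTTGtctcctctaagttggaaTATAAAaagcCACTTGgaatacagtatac
Bmp4, chr14:46390670-46390919, minus strand: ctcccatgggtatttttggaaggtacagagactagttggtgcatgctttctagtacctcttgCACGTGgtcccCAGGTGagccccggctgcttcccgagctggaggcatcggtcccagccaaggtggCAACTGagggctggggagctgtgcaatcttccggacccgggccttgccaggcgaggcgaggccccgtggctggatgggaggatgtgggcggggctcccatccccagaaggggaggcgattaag
Inhba, chr13:16011601-16011850, plus strand: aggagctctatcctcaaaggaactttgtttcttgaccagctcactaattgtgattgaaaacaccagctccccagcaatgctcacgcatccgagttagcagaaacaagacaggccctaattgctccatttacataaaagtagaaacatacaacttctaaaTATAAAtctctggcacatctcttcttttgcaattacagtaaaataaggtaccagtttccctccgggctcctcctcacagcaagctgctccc
Grem1, chr2:113758649-113758898, minus strand: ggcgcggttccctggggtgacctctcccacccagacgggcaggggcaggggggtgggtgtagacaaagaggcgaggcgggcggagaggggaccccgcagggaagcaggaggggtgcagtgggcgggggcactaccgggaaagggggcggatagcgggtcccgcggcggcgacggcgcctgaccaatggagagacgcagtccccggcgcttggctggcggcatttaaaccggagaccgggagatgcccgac
The Mstn window held 4 E-boxes and 1 TATAAA, the Bmp4 window 3 E-boxes, the Inhba window 1 TATAAA and no E-box, and the Grem1 window neither. Searched on both strands over 32536 windows of this length, CANNTG occurred in 66.2% and TATAAA in 12.3%. The palindrome GGCGCC occurred in 9.65% of all windows and once in that of Grem1. The windows of Bmp4 and Grem1 had GC contents of 63.2% and 72.0% against 43.2% for Inhba and a median of 52.4% over all windows. None of these letters was in all 3 windows of Bmp4, Inhba and Grem1, and no matches overlapped. A match is a description of letters, not of binding.

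Depth ran from 15658875 to 20055078 estimated counts per library, and 15467 genes passed the filter. Levels are given as CPM, counts relative to the library's total after scaling by trimmed mean of M values (TMM), and are compared between genes only as TPM, which also divide by transcript length. Differences come from edgeR's quasi-likelihood test, with p-values adjusted by Benjamini-Hochberg over all genes tested and called at 0.05. Muscle markers were highest in the libraries labelled myotube, and the summed CPM of 8 of them was 337 to 338 in myoblasts, 25448 to 25644 in myotubes and 7210 to 7873 in reserve cells. Reserve cell markers such as Pax7 and Notch3 (6 genes) summed to 505 to 524 in myoblasts, 182 to 185 in myotubes and 566 to 568 in reserve cells. Notch3 was the highest of them in myoblasts and reserve cells, and Spry1 in myotubes. Between reserve cells and myoblasts, 2 of these 6 (Spry1 and Cd34) were higher, 2 (Myf5 and Hey1) were lower, and Pax7 (63.4 against 70.5 CPM) and Notch3 did not pass the test, so the list did not set these states apart. Spry1 was highest in myotubes (95.6 CPM). The sum of 6 genes of dividing cells was 1878 to 1899 in myoblasts, 149 to 152 in myotubes and 738 to 755 in reserve cells. Fibroblast markers summed to 10693 to 10695 in myoblasts, 3730 to 3902 in myotubes and 19463 to 19878 in reserve cells, mostly from Fn1. Markers of adipocytes, endothelium and leukocytes summed to at most 2.67 CPM in any library.

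Mstn was near 0 throughout, Gdf5 and Fst rose in both day 7 states and were highest in myotubes, and Bmp4, Inhba and Grem1 were at least 2-fold higher in reserve cells than in either other state. Between myotubes and myoblasts, 7 of the 9 genes tested were called, 5 higher and 2 lower, and 4 were called with at least a 2-fold change. Over all genes, 65.5% were called in that comparison, 32.7% higher and 32.9% lower, and 35.2% were called with at least a 2-fold change. Between reserve cells and myoblasts, 8 of 9 were called, all higher, and 5 by at least 2-fold, where 47.1% of all genes were called, 24.7% higher and 22.4% lower, and 16.9% by at least 2-fold. Between myotubes and reserve cells, 6 were called, 3 higher in myotubes and 3 lower, and 5 by at least 2-fold, against 56.5% of all genes called, 27.6% higher, 28.9% lower and 23.4% by at least 2-fold. The median log2 fold change over the 9 genes was 0.40, 1.16 and 0.07 in these comparisons, and that over all genes was 0.00, 0.01 and -0.01. The comparisons share libraries, so they are not separate evidence.

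**Figure D1:**
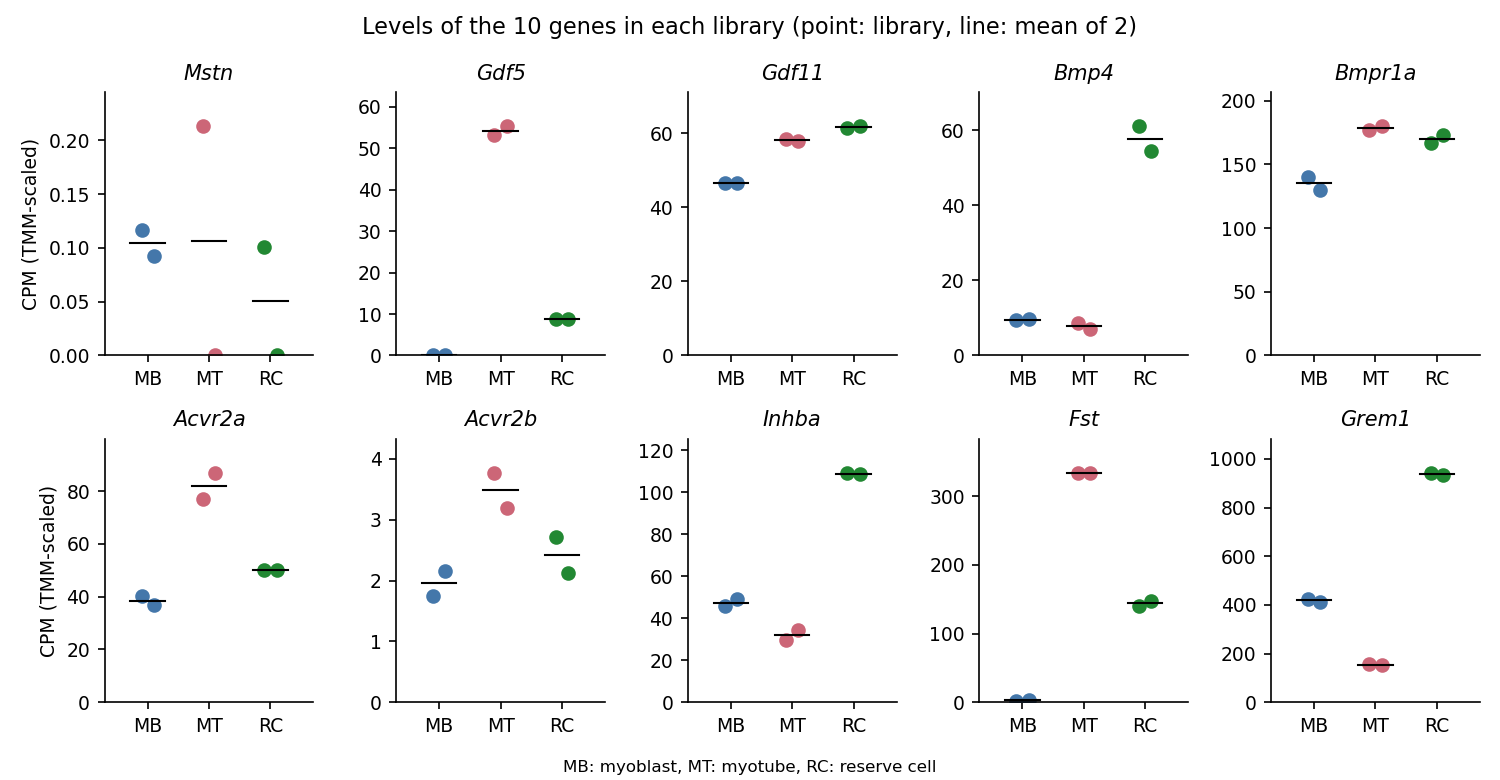
CPM of the 10 genes (y axis, from 0, own scale per gene) in each library (points) of myoblasts (MB), myotubes (MT) and reserve cells (RC), with the mean of the 2 libraries as a line. Gdf5 and Fst are near 0 in myoblasts and highest in myotubes, while Bmp4, Inhba and Grem1 are highest in reserve cells.

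Among the ligands, Mstn (ENSMUSG00000026100.6, chr1:53061640-53068079), which encodes myostatin, had 2 and 2 counts in the myoblast libraries, 3 and 0 in myotubes, and 2 and 0 in reserve cells. Pooled over a state, these were 0.103 CPM (exact Poisson 95% interval 0.0280 to 0.264) in myoblasts, 0.0959 CPM (0.0198 to 0.280) in myotubes and 0.0511 CPM (0.00618 to 0.184) in reserve cells. Such intervals cover counting error only. All states overlapped, and a difference between them was not detectable at this depth.

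Gdf11 encodes the ligand closest to myostatin in sequence. It stood at 46.7 and 46.5 CPM in myoblasts, 58.5 and 58.1 CPM in myotubes, and 61.6 and 61.9 CPM in reserve cells. The states did not overlap, but the steps between them were small. Its log2 fold change was 0.32 (SE 0.08, adjusted p = 0.0021) in myotubes and 0.41 (SE 0.08, adjusted p = 0.00059) in reserve cells against myoblasts, while myotubes and reserve cells differed by -0.08 (95% interval -0.25 to 0.08, adjusted p = 0.37). The rise in myotubes depended on the scaling, and on transcripts in place of genes it was 0.29 (adjusted p = 0.055). With library totals in place of TMM it was 0.04 (adjusted p = 0.62), where the median of all genes stood at -0.27, which left Gdf11 0.32 above that median. The same change made Gdf11 lower in myotubes than in reserve cells, by -0.29 (adjusted p = 0.005) with the median of all genes at -0.21. In TPM, which have no TMM scaling, Gdf11 was lower in myotubes (26.6 and 26.7) than in myoblasts (28.4 and 28.4).

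Inhba (chr13:16011851-16031621) encodes the subunit of activin A. It measured 45.8 and 49.1 CPM in myoblasts, 29.9 and 34.5 CPM in myotubes, and 109 CPM in both reserve cell libraries. No libraries of different states overlapped, with myotubes lowest and reserve cells highest. Inhba fell by 0.56 on the log2 scale (SE 0.09, adjusted p = 9.3e-05) in myotubes and rose by 1.20 (SE 0.09, adjusted p = 9.6e-08) in reserve cells against myoblasts. Reserve cells exceeded myotubes 3.38-fold (adjusted p = 1.9e-09). Inhbb, the subunit of activin B and the main ligand outside the list, measured 30.7 and 29.1 CPM in myoblasts, 41.1 and 41.8 CPM in myotubes, and 241 and 244 CPM in reserve cells. Both activin subunits were therefore highest in reserve cells, but Inhbb was slightly higher in myotubes than in myoblasts (log2 fold change 0.47, adjusted p = 3.7e-05), where Inhba was lower. The ratio of Inhbb to Inhba in TPM was 0.840 and 0.855 in myoblasts, 1.85 and 1.66 in myotubes, and 2.68 and 2.93 in reserve cells.

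Bmp4 (chr14:46383520-46390669), a BMP that acts early in many tissues, measured 9.33 and 9.77 CPM in myoblasts, 8.60 and 6.97 CPM in myotubes, and 61.0 and 54.5 CPM in reserve cells. Only reserve cells stood apart by a wide margin. Bmp4 was 6.04-fold higher there than in myoblasts (log2 fold change 2.60, SE 0.14, adjusted p = 3.7e-09) and 7.44-fold higher than in myotubes (adjusted p = 1.3e-09). The difference between myotubes and myoblasts, -0.30 (95% interval -0.62 to 0.01), did not pass the test (adjusted p = 0.087). It did without myotube replicate 1 (-0.46, adjusted p = 0.022) and with library totals (-0.58, adjusted p = 0.0035), or -0.31 beyond the median of all genes. A gene on the opposite strand, Gm15217, shares 89 exonic bases with Bmp4 and held at most 8 counts per library. Of 7 fibroblast markers tested, 5 were also higher and 1, Pdgfra, lower (10.1 against 18.6 CPM) in reserve cells than in myoblasts, and their part in the levels of Bmp4, Inhba and Grem1 was not tested.

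Gdf5 (ENSMUSG00000038259.4, chr2:155941023-155945367, minus strand), a BMP-type ligand best known from joint formation, had no count in either myoblast library. It had 749 and 952 counts (53.2 and 55.3 CPM) in myotubes and 173 and 168 counts (8.72 and 8.69 CPM) in reserve cells. The states were far apart, and the libraries of each state lay close together. With 3 counts over the myoblast libraries as the floor, Gdf5 was at least 704-fold higher in myotubes and at least 113-fold higher in reserve cells. Myotubes exceeded reserve cells 6.23-fold (log2 fold change 2.64, SE 0.14, adjusted p = 7.3e-09). In reserve cells, Gdf5 stood at 16.0% of its mean CPM in myotubes, while the 8 muscle markers stood at 20.3% to 44.9% with a median of 30.7%, and their part in the reserve cell level was not tested. Gm15557 on the opposite strand shares 936 exonic bases with Gdf5 and had 0 and 2 counts in myoblasts, 192 and 182 in myotubes, and 36 and 31 in reserve cells. Whether the counting used strand is not given in the sources used here, so reads of this overlap cannot be told apart. Of the bone and cartilage markers, Sox9 was the highest in myotubes at 59.9 CPM, Ibsp and Acan had no count in any state, and the list as a whole summed to less in myotubes (78.5 to 85.2 CPM) than in myoblasts (142 to 146 CPM). Alpl, in the same list, had no count in myoblasts, 22 and 34 counts in myotubes and 15 and 13 in reserve cells, at least 23.2-fold and at least 9.26-fold higher.

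Among the receptors, Acvr2a encodes the type II receptor of activins and myostatin. It measured 40.3 and 36.8 CPM in myoblasts, 77.1 and 86.8 CPM in myotubes, and 49.9 and 50.3 CPM in reserve cells. The states did not overlap. Acvr2a was 2.13-fold higher in myotubes than in myoblasts (log2 fold change 1.09, SE 0.09, adjusted p = 1.2e-07), 1.30-fold higher in reserve cells than in myoblasts (0.38, SE 0.09, adjusted p = 0.003), and 1.64-fold higher in myotubes than in reserve cells (adjusted p = 1.1e-05). Orc4, an origin recognition gene on the opposite strand, shares 446 exonic bases with it and had 594 to 925 counts per library, of which 613 and 692 were in myotubes, and here too reads of the overlap cannot be told apart.

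Acvr2b, which encodes the other type II receptor and binds myostatin tightly, was the least abundant of the 3 receptor genes. It measured 1.75 and 2.17 CPM in myoblasts, 3.77 and 3.20 CPM in myotubes, and 2.72 and 2.12 CPM in reserve cells, from 30 to 55 counts per library. None of its differences passed the test, and the intervals were wide: 0.02 to 1.63 (adjusted p = 0.068) for myotubes against myoblasts, -0.51 to 1.11 (adjusted p = 0.54) for reserve cells against myoblasts and -0.28 to 1.32 (adjusted p = 0.25) for myotubes against reserve cells. Reserve cells and myoblasts overlapped. Differences within these intervals were not detectable at this depth.

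Bmpr1a, a type I receptor of BMPs, was the most abundant of the 3 receptor genes. It measured 140 and 130 CPM in myoblasts, 177 and 180 CPM in myotubes, and 167 and 173 CPM in reserve cells. Its log2 fold change was 0.40 (SE 0.06, adjusted p = 2.9e-05) in myotubes and 0.33 (SE 0.06, adjusted p = 0.0003) in reserve cells. The day 7 states differed by 0.07 (95% interval -0.05 to 0.19, adjusted p = 0.3), a difference that turned to -0.13 (adjusted p = 0.056) with library totals. On that scale the rise in myotubes was 0.12 (adjusted p = 0.067), or 0.40 above the median of all genes. With library totals, the 10 genes thus gave 3 calls higher and 3 lower between myotubes and myoblasts in place of 5 and 2, and all genes gave 3738 higher and 6504 lower in place of 5056 and 5081.

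**Figure D2:**
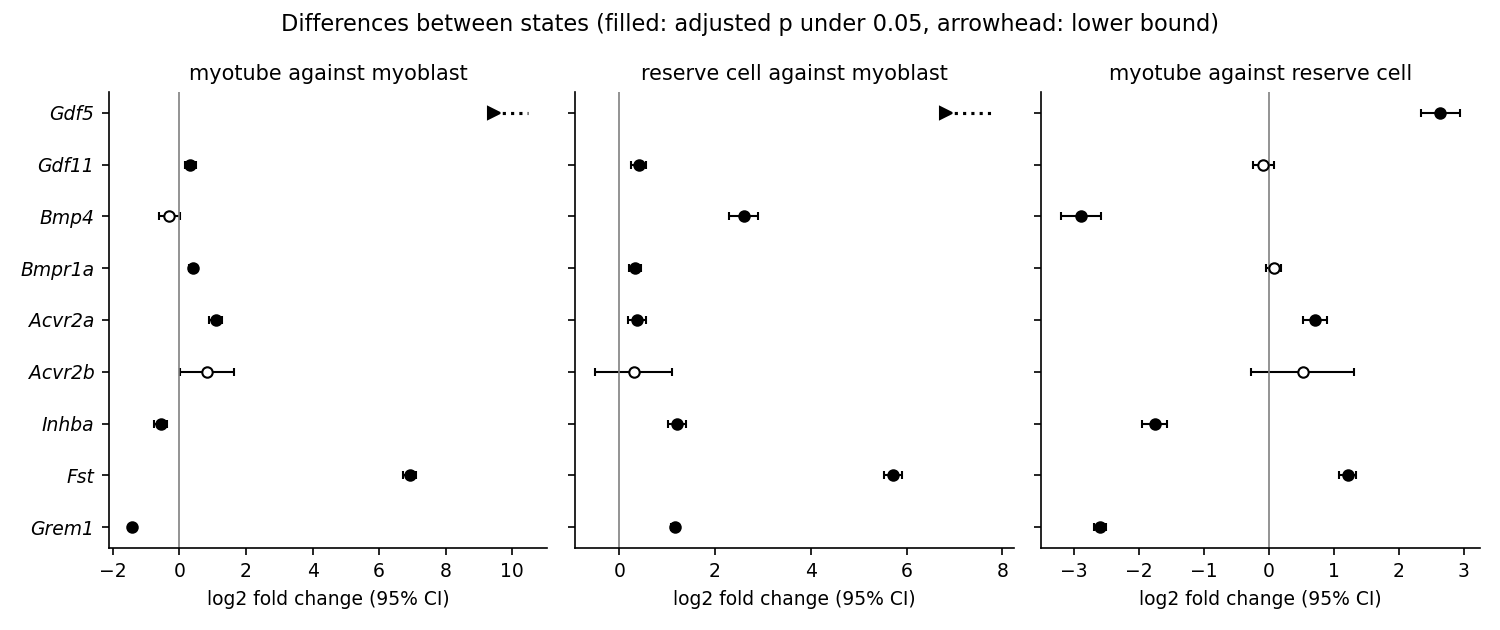
Log2 fold change (x axis) of the 9 genes tested in each comparison, with 95% intervals, filled where the adjusted p is under 0.05. Arrowheads mark the lower bounds for Gdf5 against myoblasts, and all 9 points lie above 0 for reserve cells against myoblasts, Acvr2b with an interval that crosses 0.

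In every state the most abundant of the 10 was an antagonist. Fst (ENSMUSG00000021765.9, chr13:114452290-114458951, minus strand) measured 2.45 and 2.99 CPM in myoblasts, 333 and 334 CPM in myotubes, and 140 and 148 CPM in reserve cells. Both day 7 states were far above myoblasts, with little spread within a state. Fst was 121-fold higher in myotubes (log2 fold change 6.92, SE 0.09, adjusted p = 9.2e-16) and 52.3-fold higher in reserve cells (5.71, SE 0.09, adjusted p = 1.2e-14) than in myoblasts, and 2.32-fold higher in myotubes than in reserve cells (adjusted p = 1.7e-09). Its reserve cell level was 43.2% of that in myotubes, within the range of the muscle markers given above, whose part in it was not tested.

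Fst makes a shorter protein form and a longer one that adds an acidic tail from the sixth exon, a difference known to alter how firmly follistatin stays at cell surfaces. In GENCODE M21, transcript Fst-202 has 317 codons before its stop and ends its coding sequence at the end of exon 5 (chr13:114454280-114454510), and Fst-201 has 344 codons and reads on through 80 coding bases of exon 6. The last 30 coding bases from exon 5 are printed for each in lower case, with the coding bases of exon 6 in capitals.
Fst-202, coding end: cttgaagtgaagcattctggatcttgcaac
Fst-201, coding end: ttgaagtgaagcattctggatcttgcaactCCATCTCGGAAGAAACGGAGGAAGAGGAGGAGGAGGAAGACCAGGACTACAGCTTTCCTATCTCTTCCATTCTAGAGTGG
StringTie's estimates gave Fst-202 83.6% and 84.5% of Fst counts in myotubes and 83.4% and 83.3% in reserve cells. Fst-201 took 6.20% and 7.77% in myotubes and 8.21% and 6.56% in reserve cells. Per length, as shares of Fst TPM, Fst-202 held 72.3% and 75.2% in myotubes and 73.3% and 72.2% in reserve cells, and Fst-205, which ends like Fst-201, held 17.2% and 11.96% in myotubes and 13.6% and 16.9% in reserve cells. By these estimates, the transcript of the short coding form led in all 4 day 7 libraries. Exon 6 of Fst-202 (chr13:114452290-114453805) contains that of Fst-201 (chr13:114452970-114453505) and of Fst-205 (chr13:114453342-114453505). Reads from the bases that only Fst-202 covers can add to its share without showing the coding end. The shares therefore do not settle which coding form led. Fst-202 shares of TPM overlapped between myotubes and reserve cells, while its shares of counts did not overlap but lay within 83.3% to 84.5%. With 42 and 65 counts of Fst in myoblasts, its split there was not precise: Fst-202 took 54.8% in 1 library and 87.7% in the other. An antisense gene, Gm47040, shares 115 exonic bases with Fst and had at most 14 counts.

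Grem1 (chr2:113746164-113758646, minus strand) was lowest in myotubes, where Fst was highest. It measured 425 and 413 CPM in myoblasts, 155 CPM in both myotube libraries, and 942 and 935 CPM in reserve cells. Grem1 fell by 1.43 on the log2 scale in myotubes (SE 0.04, adjusted p = 2.6e-12) and rose by 1.16 in reserve cells (SE 0.04, adjusted p = 4.6e-11) against myoblasts. Reserve cells exceeded myotubes 6.05-fold (adjusted p = 1e-13). Bmp4, Inhba and Grem1, the 3 genes at least 2-fold higher in reserve cells than in either other state, thus included a BMP and an antagonist that binds it.

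Per length, Grem1 was the most abundant of the 10 in myoblasts (250 ± 4.63 TPM, SD, n = 2) and in reserve cells (550 ± 3.47 TPM), and Fst in myotubes (249 ± 2.95 TPM). In myoblasts, Bmpr1a (56.6 TPM), Gdf11 (28.4 TPM), Inhba (20.5 TPM), Acvr2a (16.8 TPM) and Bmp4 (12.4 TPM) followed Grem1, and no neighbours in that order overlapped. In myotubes the order after Fst was Grem1 (69.4 TPM), Bmpr1a (61.0 TPM) and Gdf5 (43.4 TPM), and then Acvr2a (26.8 TPM) and Gdf11 (26.6 TPM), whose libraries overlapped. In reserve cells, Fst (142 TPM) came second, followed by Bmpr1a (74.0 TPM) and Bmp4 (70.7 TPM), which overlapped, Inhba (49.4 TPM), Gdf11 (36.9 TPM), Acvr2a (21.4 TPM) and Gdf5 (9.12 TPM). Acvr2b had means of 1.73, 2.68 and 2.79 TPM in myoblasts, myotubes and reserve cells, above only Mstn at day 7 and above only Mstn and Gdf5 in myoblasts. Bmp4 was thus the leading ligand of the list in reserve cells, Gdf5 in myotubes and Gdf11 in myoblasts.

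**Figure D3:**
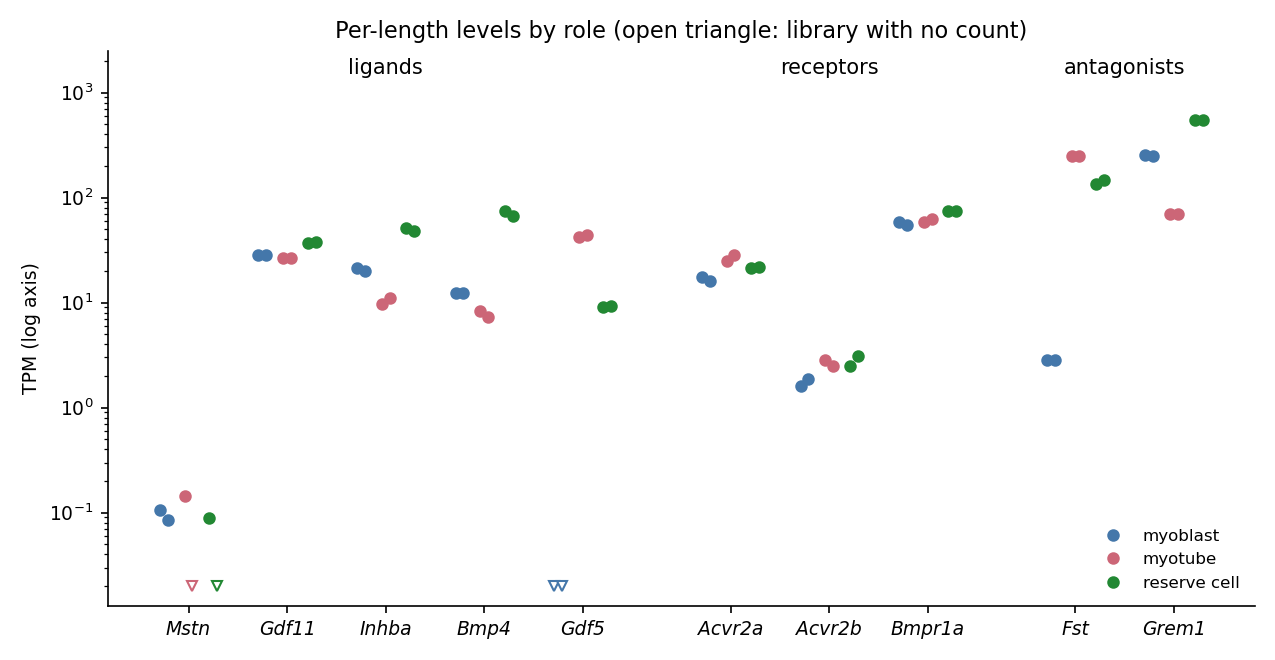
TPM (y axis, log scale) of the 10 genes in each library, grouped by role and coloured by state. Open triangles at the foot stand for libraries with no count, and Grem1 and Fst exchange the highest place between states.

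Ratios between a ligand and its antagonist are given as TPM ratios within a library, as a description with no test. Fst over Inhba was 0.134 and 0.144 in myoblasts, 26.1 and 22.4 in myotubes, and 2.67 and 3.07 in reserve cells. With Inhbb added to Inhba, it was 0.0728 and 0.0774, 9.15 and 8.40, and 0.727 and 0.782. Activin subunit RNA therefore exceeded Fst RNA in reserve cells once both subunits were counted, and Fst RNA exceeded it in myotubes. Grem1 over Bmp4 was 20.5 and 19.8 in myoblasts, 8.31 and 9.55 in myotubes, and 7.40 and 8.19 in reserve cells. Grem1 RNA stayed above Bmp4 RNA in all 6 libraries. Grem1 over Fst was 89.2 and 86.6 in myoblasts, 0.276 and 0.283 in myotubes, and 4.02 and 3.75 in reserve cells. Acvr2a over Bmpr2, another type II receptor gene, was 0.672 and 0.586 in myoblasts, 1.07 and 1.14 in myotubes, and 0.627 and 0.562 in reserve cells.

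**Figure D4:**
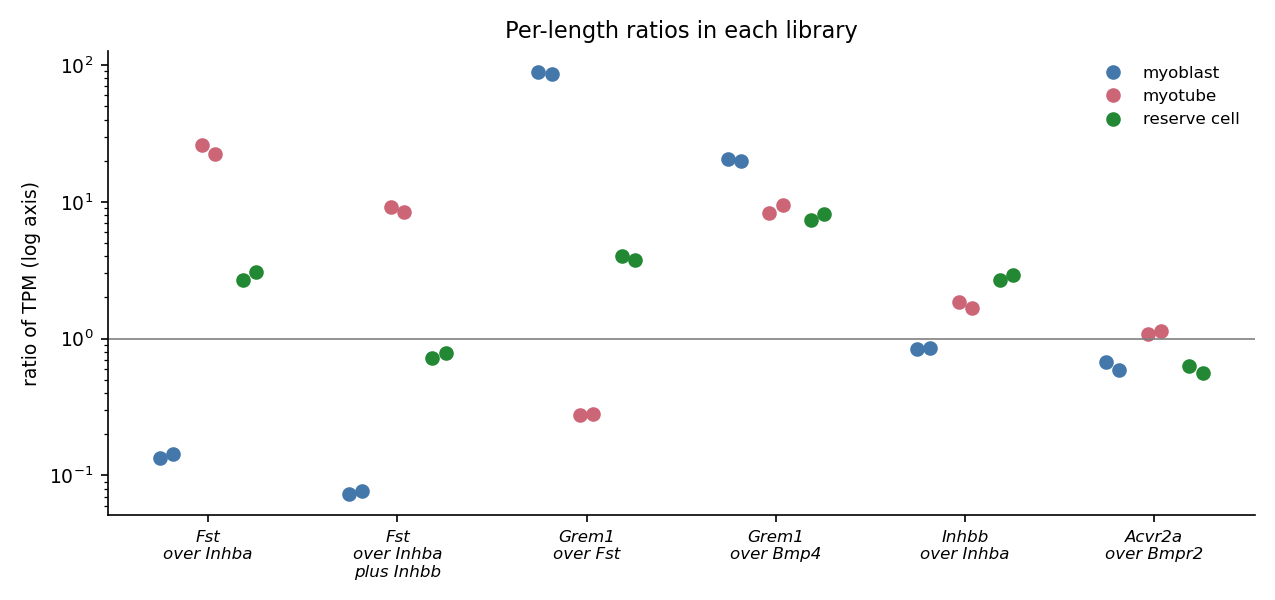
Ratios of TPM (y axis, log scale, line at 1) in each library, coloured by state. Fst over Inhba spans from 0.134 in a myoblast library to 26.1 in a myotube library, and Grem1 over Bmp4 lies above 1 in all 6.

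The rest of the pathway was read from lists by role. Among 15 other ligand genes, 10 were not tested, and 8 of these had no count in any library, Bmp7 and Nodal among them. Of the 5 tested, 4 were higher in myotubes and 3 in reserve cells than in myoblasts, and 2, Inhbb and Bmp6, were lower in myotubes than in reserve cells. The list's medians were 1.57, 3.02 and 0.65. Gdf6, a close relative of Gdf5, also had no count in myoblasts and had 32 and 24 counts in myotubes and 11 and 18 in reserve cells, at least 23.2-fold and at least 9.59-fold higher.

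Among 6 other receptor genes tested of 8, 3 were higher and 1 was lower in myotubes than in myoblasts, 4 were higher in reserve cells than in myoblasts, and 4 were lower in myotubes than in reserve cells, with medians of 0.18, 0.44 and -0.64. Tgfbr2, the type II receptor of TGF-β, measured 146 and 146 CPM in myoblasts, 228 and 250 CPM in myotubes, and 508 and 518 CPM in reserve cells. Acvr1, a type I receptor of BMPs and activins, was lower in myotubes (30.8 and 35.2 CPM) than in myoblasts (72.5 and 75.3 CPM), with a log2 fold change of -1.16 (adjusted p = 5.5e-08). Bmpr1b, the other type I receptor of Gdf5, measured 11.1 CPM in both reserve cell libraries and 2.49 to 4.61 CPM elsewhere. Among co-receptors, 4 of 6 tested were higher in each day 7 state than in myoblasts, with medians of 1.07 and 1.38. Hfe2, which encodes the BMP co-receptor hemojuvelin and is expressed in skeletal muscle, measured 5.83 and 7.37 CPM in myoblasts, 524 and 507 CPM in myotubes, and 126 and 123 CPM in reserve cells. Tgfbr3, which encodes betaglycan, was instead highest in reserve cells, at 22.3 and 21.8 CPM against 1.34 to 2.73 CPM in the other libraries.

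Of 9 other antagonist genes tested of 12, 5 were higher and 3 lower in myotubes than in myoblasts, 7 higher and 1 lower in reserve cells than in myoblasts, and 2 higher and 5 lower in myotubes than in reserve cells. Their medians were 0.76, 1.60 and -1.16. Chrd, which encodes the BMP antagonist chordin, followed Fst, with 10.3 and 7.74 CPM in myoblasts, 95.3 and 96.6 CPM in myotubes, and 49.4 and 45.9 CPM in reserve cells. Nog, which encodes noggin, was also highest in myotubes (11.9 and 13.4 CPM against 2.51 and 3.18 CPM in myoblasts). Chrdl1 and Bmper were instead highest in reserve cells, at 21.6 and 20.6 CPM and at 51.0 and 47.7 CPM. Of 4 ligand processing genes tested of 6, all 4 were higher in reserve cells than in both myoblasts and myotubes, among them Furin, which cuts the precursors, and Bmp1, which frees myostatin from its propeptide. With library totals, 3 of 4 remained called against myoblasts.

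Among 10 genes for Smads and the Smurf ligases that degrade them, 8 were lower and 1 was higher in myotubes than in myoblasts, 9 lower and 1 higher in myotubes than in reserve cells, and 4 higher and 2 lower in reserve cells than in myoblasts, with medians of -0.45, -0.57 and 0.04. The exception in myotubes was Smad3, which transmits activin and myostatin signals, at 80.0 and 83.6 CPM in myoblasts, 140 and 150 CPM in myotubes, and 112 and 107 CPM in reserve cells. Smad1 did not pass the test between myotubes and myoblasts (-0.06, adjusted p = 0.6) and was higher in reserve cells than in myoblasts (0.57, adjusted p = 0.00014). Genes that BMP signalling is known to induce, 3 of which (Smad6, Smad7 and Smad9) are also in the Smad list, were lower in myotubes than in myoblasts for 9 of 10, with a median of -2.23, and 5 were lower and 1 higher in reserve cells than in myoblasts, with a median of -1.19. Of these target genes, Bambi is also in the co-receptor list and Hey1 among the reserve cell markers. Id3, which blocks muscle bHLH factors, measured 188 and 169 CPM in myoblasts, 5.90 and 4.77 CPM in myotubes, and 25.2 and 28.7 CPM in reserve cells. Smad7, an inhibitory Smad, was the exception in reserve cells, at 32.4 and 30.6 CPM against 17.4 and 20.7 CPM in myoblasts. Markers of dividing cells were also lower in both day 7 states, and their part in the target genes' levels was not tested.

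Of 3 ubiquitin ligase genes linked to myostatin and BMP signalling in muscle, all 3 were higher in each day 7 state than in myoblasts. Trim63, which encodes MuRF1, measured 1.05 and 0.921 CPM in myoblasts, 154 and 149 CPM in myotubes, and 37.8 and 33.9 CPM in reserve cells. Fbxo30, a ligase that BMP signalling is known to repress, measured 42.8 and 47.6 CPM, 80.4 and 86.3 CPM, and 53.4 and 58.2 CPM, and Fbxo32, which encodes atrogin-1, 105 and 102 CPM, 134 and 139 CPM, and 167 and 168 CPM. Fbxo32 thus had its highest level in reserve cells and the other two in myotubes. With library totals, 4 medians of the 10 genes and the pathway lists turned sign: other receptors between myotubes and myoblasts (-0.09), Smads between reserve cells and myoblasts (-0.03), and co-receptors (-0.18) and the 10 genes (-0.13) between myotubes and reserve cells. On that scale the median of all genes stood at -0.27, -0.06 and -0.21 in the 3 comparisons. Less that median, the 4 medians above were 0.18, 0.02, 0.04 and 0.08. With library totals, the counts called higher in myotubes than in myoblasts were 2 of 3 ubiquitin ligases, 3 of 6 co-receptors and 2 of 6 other receptors.

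**Figure D5:**
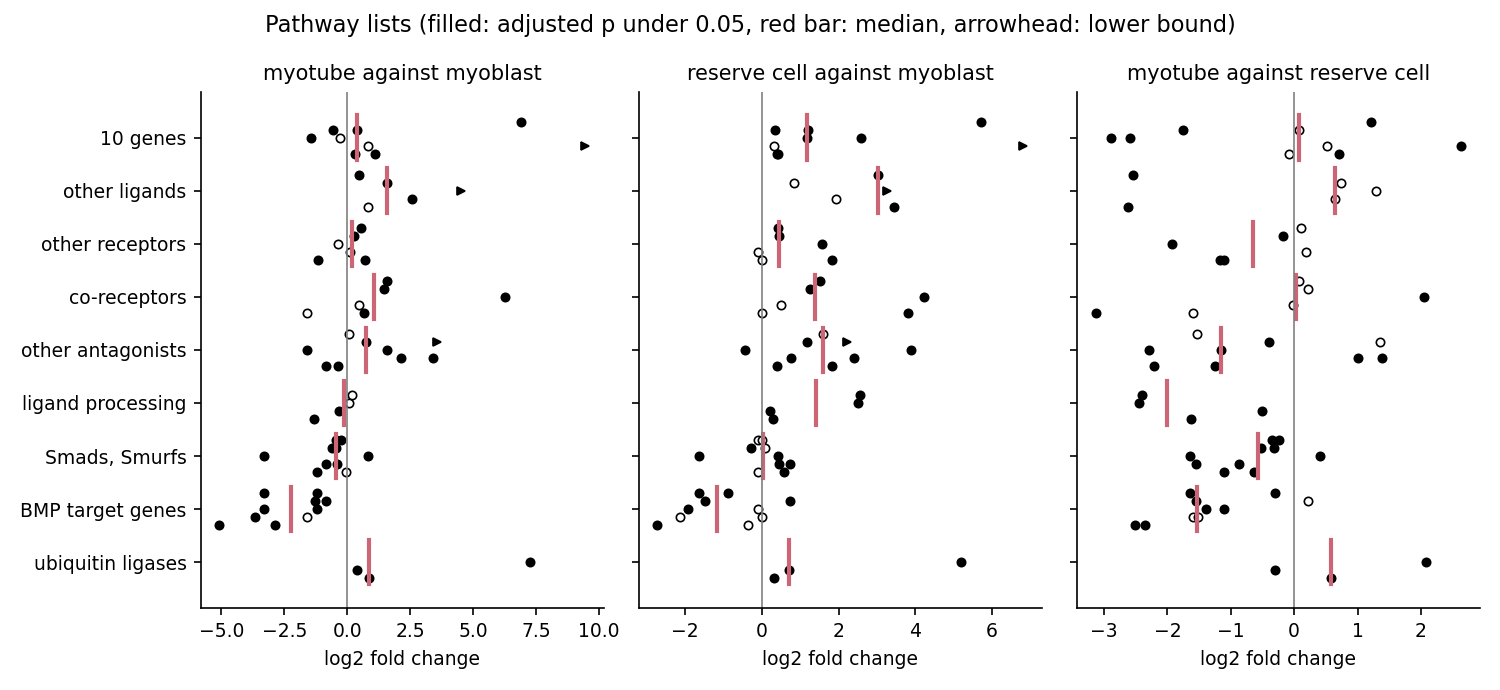
Log2 fold change (x axis) of each tested gene of the 10 genes and of 8 pathway lists in the 3 comparisons, filled where the adjusted p is under 0.05, with the median as a red bar and lower bounds as arrowheads. BMP target genes lie left of 0 in myotubes against myoblasts, and ligand processing genes lie left of 0 in myotubes against reserve cells.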

How the data were processed

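The authors sequenced mRNA as 150-base read pairs, mapped them to mm10 with HISAT2, filtered with SAMtools and assembled transcripts with StringTie (versions not given in the sources used here), and deposited estimated counts per annotated transcript as whole numbers in 6 libraries. The separate table for the whole series was not used here. Here, 141374 of 142604 transcripts were paired with genes of GENCODE M21 (GRCm38) and summed. The 1230 others, 0.375% to 0.872% of counts, were each kept as a gene of their own. They entered the library totals, the filter, the fit and the numbers over all genes, and were left out of TPM only. The main test was edgeR 4.0.16 (R 4.3.3), run as 1 robust quasi-likelihood fit of all 6 libraries after TMM scaling of the genes that filterByExpr kept (minimum count 10), with Benjamini-Hochberg adjustment. Robust estimation and its alternative were chosen after seeing the data. It was tested on simulated data. DESeq2 1.42.0, other scalings and filters, separate fits, transcripts in place of genes and each library left out were the alternatives, among others. TPM used annotated transcript lengths. The 10 genes and all lists were chosen with earlier results of these data known. All 10 are named, and up to 4 genes of a list, called at least once and with at least 10 CPM in a state, by the widest range between states. Other genes were named after their values were seen. Replicate numbers did not pair the libraries. Nothing says that libraries came from separate cultures beyond the submitters' term, so p-values may measure technical spread. Depth per library was 15658875 to 20055078 estimated counts.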

Additional observations from a re-analysis of the deposited data

How the results depend on the processing

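Of the 16 settings, transcripts in place of genes was left out of the counts of genes called. Over the others, the number of the 10 genes called ranged from 6 to 8 between myotubes and myoblasts. That number was 8 in each of them between reserve cells and myoblasts, and ranged from 6 to 7 between myotubes and reserve cells. The counts over all genes in the same settings ranged from 8183 to 10242, 5862 to 7626 and 7464 to 8748. Of 429 single values of these genes under an alternative, 417 kept direction and side of the threshold, 7 lost the call, 3 gained it and 2 turned sign. Those that turned were Bmpr1a between myotubes and reserve cells with library totals (-0.13) and Acvr2b between reserve cells and myoblasts with transcripts in place of genes (-0.88); neither was called there, and the cause was not tested. Library totals, which shift the median of all genes by -0.27 (myotubes against myoblasts), ended the calls of Gdf11 and Bmpr1a there. Transcripts in place of genes ended 5 calls: Gdf11 between myotubes and myoblasts (0.29, adjusted p = 0.055), Gdf11 (0.37, 0.057), Bmpr1a (0.28, 0.065) and Acvr2a (0.34, 0.15) between reserve cells and myoblasts, and Fst between myotubes and reserve cells (1.23, 0.09), each given as log2 fold change and edgeR adjusted p. Leaving out 1 library changed the call of a single value, Bmp4 between myotubes and myoblasts. Replicates with the same number did not vary together (correlations across genes of 0.00, 0.04 and -0.03), and the replicate block gave 7, 8 and 6 calls among these genes and 10013, 7201 and 8549 over all genes. Depth limits Mstn and Acvr2b most.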
